A study of Mus musculus with 8 samples.

Results

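Triglyceride synthesis in the liver was described through 8 genes, Gpam, Agpat2, Agpat3, Lpin1, Lpin2, Mogat1, Dgat1 and Dgat2, in mice that overexpressed alanine-glyoxylate aminotransferase (AGXT) during metabolic dysfunction-associated steatohepatitis (MASH). The genes were picked by symbol, and each of the 8 matched 1 Ensembl gene identifier among the 52636 genes counted in every library. The mice were wild-type male C57BL/6J. They received an adeno-associated virus of serotype 8 carrying either green fluorescent protein (AAV8-TBG-GFP, here AAV8-GFP) or human AGXT (AAV8-TBG-AGXT, here AAV8-AGXT) at 7 weeks of age, and both groups then ate the same high-fat, high-cholesterol, high-fructose MASH diet for 24 weeks. The TBG promoter is active in hepatocytes and not in the other cells of the liver, so both transgenes were directed to hepatocytes. Each group held 4 mice, with 1 RNA-sequencing library of bulk liver per mouse: mice 303, 311, 314 and 315 for AAV8-GFP and mice 308, 309, 316 and 319 for AAV8-AGXT. No mouse on a standard diet entered the comparison, and the time of day of harvest and the hours since the last meal were not given in the sources used here.

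Hepatocytes build triglyceride on glycerol 3-phosphate. A glycerol 3-phosphate acyltransferase (GPAT) adds the first fatty acid, an acylglycerophosphate acyltransferase (AGPAT) adds the next to give phosphatidic acid, a lipin removes the phosphate to give diacylglycerol, and a diacylglycerol acyltransferase (DGAT) adds the last fatty acid. Monoacylglycerol acyltransferases (MGAT) reach diacylglycerol by another route, from monoacylglycerol. Phosphatidic acid and diacylglycerol also feed the synthesis of membrane phospholipids, and lipins are also known as transcriptional coregulators in the nucleus.

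The libraries held between 17095433 and 28780140 read pairs assigned to genes, and the 8 genes received between 116 and 14144 counts in each library. Mouse 308 had the lowest share of its pairs assigned to genes, 56.3%, against 62.4% to 69.1% in the other 7 mice. The 5 hepatocyte markers examined summed to between 42234 and 50636 CPM (counts scaled to the effective size of the library) in AAV8-GFP and between 51620 and 73094 CPM in AAV8-AGXT, so the labelled tissue carried its defining transcripts. All 5 had a positive fold change with a median of 0.45 on the log2 scale, and 1 of them, Cps1 of the urea cycle, was called higher with a log2 fold change of 0.96 and an edgeR adjusted p of 0.0279. The 4 cholangiocyte markers had a negative one with a median of -1.24. Medians were -0.27 for macrophage, -0.50 for stellate cell, -0.68 for T and B cell and 0.24 for endothelial markers, with no gene of these 4 lists or of the cholangiocyte list called. The part of cell makeup in the results was not tested. Bulk counts cannot tell apart fewer cells of a type and less RNA per cell. The adipocyte genes Adipoq, Plin1, Lep and Retn stood at no more than 0.39 CPM in any mouse, and Lep had no count in any, although Cfd, a complement factor that adipocytes secrete, rose with a log2 fold change of 1.93 and an edgeR adjusted p of 0.0487. The mouse Agxt gene had a log2 fold change of 0.90 (SE 0.22), and whether reads of the human transgene were counted in it was not tested.

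Of the 8 genes, only Gpam passed the test across all genes, and it was higher in AAV8-AGXT. Among the 15248 genes tested, 4.35% were called by an edgeR adjusted p under 0.05, 2.45% as higher and 1.9% as lower. None of the 8 was called lower. DESeq2, which called 2102 of 16204 genes, called 4 of the 8 higher, adding Agpat3, Lpin2 and Dgat2 with adjusted p-values of 0.0027, 0.0085 and 0.021. For 3 genes, Gpam, Agpat3 and Lpin2, the groups were fully apart, against 16.6% of all genes tested, and 4 of the 8 had an unadjusted p under 0.05, against 26.2% of all genes tested. Fold changes were positive for 7 of the 8 genes, with a median of 0.48 on the log2 scale and a range from -0.02 to 1.05, where the median of all genes tested was 0.02. With 4 mice in each group there are 70 arrangements of the mice, and the smallest p that a two-sided exact permutation test of 1 gene can give is 0.0286.

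**Figure D1:**
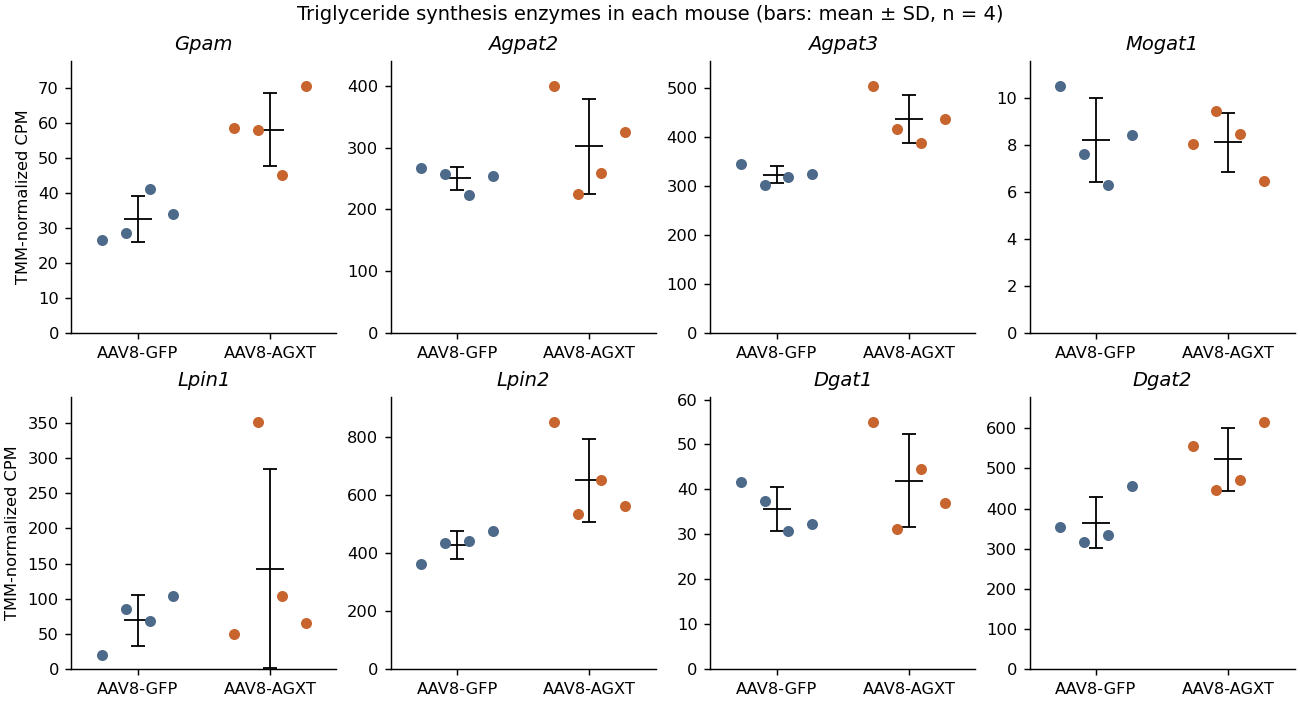
CPM after trimmed mean of M-values (TMM) scaling on the vertical axis of each panel, which starts at 0, for each of the 8 triglyceride synthesis genes. Each point is 1 mouse, left AAV8-GFP and right AAV8-AGXT, and the bars give the mean ± SD of 4 mice. The groups are apart for Gpam, Agpat3 and Lpin2, and 1 AAV8-AGXT mouse at 351.7 CPM stretches the Lpin1 panel.

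The sequences just before the transcription start were read for the called gene, Gpam, and for both lipins, whose values behaved differently from each other. RefSeq promoter windows were found for 6 of the 8 genes, not for Dgat1 and Dgat2. Each line gives the 250 bases that end next to the start, 5′ to 3′ on the strand of the gene, and capitals mark matches to a CCAAT box (CCAAT), a GC box (GGGCGG) or an E-box (CACGTG) on either strand. RefSeq gives Gpam 2 starts, 27.8 kb apart, and Lpin2 3 starts, and the window of the first listed start is printed for each. The printed Gpam window lies at chr19:55127239-55127488 on the minus strand, the Lpin1 window at chr12:16610967-16611216 on the minus strand and the Lpin2 window at chr17:71183282-71183531 on the plus strand (GRCm38.p6).
Gpam: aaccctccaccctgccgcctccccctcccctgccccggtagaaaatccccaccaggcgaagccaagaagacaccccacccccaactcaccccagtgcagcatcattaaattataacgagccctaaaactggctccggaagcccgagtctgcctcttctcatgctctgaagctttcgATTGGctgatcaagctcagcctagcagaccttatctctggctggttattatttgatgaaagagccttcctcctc
Lpin1: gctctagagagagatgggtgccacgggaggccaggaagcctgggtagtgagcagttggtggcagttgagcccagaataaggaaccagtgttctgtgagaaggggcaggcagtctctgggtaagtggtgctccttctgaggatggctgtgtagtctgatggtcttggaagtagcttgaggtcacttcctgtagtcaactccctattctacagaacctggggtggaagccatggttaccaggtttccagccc
Lpin2: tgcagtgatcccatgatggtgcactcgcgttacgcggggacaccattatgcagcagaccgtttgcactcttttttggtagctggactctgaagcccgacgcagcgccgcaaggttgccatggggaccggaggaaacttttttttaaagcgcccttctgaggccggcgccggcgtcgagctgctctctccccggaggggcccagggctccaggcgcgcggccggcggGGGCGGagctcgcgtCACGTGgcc
The printed Gpam window held 1 CCAAT box, a match found in 33.8% of 32851 promoter windows of the same length. The other Gpam window held a GC box and no CCAAT box. The printed Lpin2 window held a GC box, as 32.7% of windows do, and a single E-box, a sequence that clock factors bind, which 6.02% of windows hold. Of the other Lpin2 windows, 1 held a GC box alone and 1 held 3 CCAAT boxes, so the E-box lay before 1 of the 3 starts. The Lpin1 window held none of these. The consensus direct repeat that PPARα binds, the full palindromic glucocorticoid response element, a sterol response element (TCACNCCAC) and a D-box (TTATGNAA) matched no window of the 6 genes, and they are found in 0.0335%, 0.00913%, 1.05% and 3.07% of all windows. Such matches describe letters within these windows alone.

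Gpam encodes a mitochondrial GPAT, which catalyses the committed first acylation (ENSMUSG00000024978, chr19:55067268-55127238, minus strand). It stood at 26.5, 28.6, 41.1 and 33.9 CPM in AAV8-GFP mice 303, 311, 314 and 315, and at 58.4, 58.1, 45.2 and 70.6 CPM in AAV8-AGXT mice 308, 309, 316 and 319. Every AAV8-AGXT mouse was above every AAV8-GFP mouse, with mouse 314 the nearest below and mouse 316 the nearest above. The means were 32.5 ± 6.53 and 58.1 ± 10.4 CPM (SD, n = 4), a log2 fold change of 0.84 (SE 0.17, 95% interval 0.46 to 1.21) with an edgeR adjusted p of 0.0363. The fold change stayed between 0.73 and 0.95 when any 1 mouse was left out, but the adjusted p passed 0.05 without mouse 303, 311, 314, 308 or 319 and reached 0.135. Calls among all genes fell in these fits too, from 664 with all mice to 2 without mouse 311, 15 without 314 and 14 without 319. Without mouse 314 the unadjusted edgeR p of Gpam was 0.00022, against 0.00056 with all mice, although its call was lost. Lost calls of other genes given below come from the same fits.

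Gpat4, a GPAT of the endoplasmic reticulum that was not among the 8 genes, showed a fold change like that of Gpam at a higher level. It stood at 144.0, 145.6, 138.9 and 137.7 CPM in AAV8-GFP and at 278.8, 222.5, 236.6 and 273.5 CPM in AAV8-AGXT. The AAV8-GFP mice lay close together, and the lowest AAV8-AGXT mouse, mouse 309, was far above them. The log2 fold change was 0.84 (SE 0.11) with an edgeR adjusted p of 0.0196, and leaving out mouse 311, 314 or 319 raised the adjusted p past 0.05, to 0.106 at most. Gpat3 and Gpat2, the other GPAT genes, had log2 fold changes of -0.12 and -0.14 and edgeR adjusted p-values of 0.651 and 0.740. For Gpat3, 29% of the 50-base stretches of its transcripts occur on either strand in transcripts of other genes, so its counts are uncertain.

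AGPAT2 is the enzyme whose loss causes congenital lipodystrophy in people, and AGPAT3 acylates lysophospholipids in the endoplasmic reticulum and Golgi. Agpat3 (ENSMUSG00000001211, chr10:78269178-78352489, minus strand) stood at 344.5, 301.9, 318.5 and 324.3 CPM in AAV8-GFP and at 503.6, 414.9, 387.2 and 436.8 CPM in AAV8-AGXT. The groups did not overlap, and mouse 308 was the highest. The log2 fold change of Agpat3 was 0.43 (SE 0.12, 95% interval 0.17 to 0.70), and it was 0.34 without mouse 308. With all mice its edgeR adjusted p was 0.0698, so it was not called, while the two-sided exact permutation test gave its smallest p, 0.0286.

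Agpat2 (ENSMUSG00000026922, chr2:26593057-26604417, minus strand) stood at 267.3, 256.9, 222.8 and 254.1 CPM in AAV8-GFP and at 400.4, 225.4, 258.9 and 324.9 CPM in AAV8-AGXT. Mice 308 and 319 were above all AAV8-GFP mice, whereas mouse 309 was below 3 of them. This gave a log2 fold change of 0.27 (SE 0.18, 95% interval -0.12 to 0.67) with an edgeR adjusted p of 0.354, and it was 0.09 without mouse 308. Exons of Agpat2 overlap those of Egfl7 on the opposite strand over 64 bp, 3.0% of its exonic length. Agpat1, Agpat4 and Agpat5, the other genes of this step, had log2 fold changes of -0.14, -0.58 and -0.02, and none was called. The counts of Agpat5 are uncertain, since 18.6% of its 50-base stretches occur on either strand in transcripts of other genes. Agpat4 was low, on average 3.83 CPM in the control livers and 2.57 CPM with AGXT, and its groups did not overlap.

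Lpin2 is the most abundant lipin transcript of liver per kilobase in these data (ENSMUSG00000024052, chr17:71182560-71249817, plus strand). It stood at 360.5, 432.9, 442.2 and 475.4 CPM in AAV8-GFP and at 851.5, 533.8, 652.8 and 563.0 CPM in AAV8-AGXT. The groups did not overlap, with the largest distance between mouse 303, the lowest, and mouse 308, the highest. The log2 fold change of Lpin2 was 0.60 (SE 0.17, 95% interval 0.22 to 0.98) with an edgeR adjusted p of 0.0713, and it was 0.44 without mouse 308.

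Lpin1, the lipin that fasting and glucocorticoids are known to induce (ENSMUSG00000020593, chr12:16535669-16610966, minus strand), had the largest fold change of the 8 genes and the widest spread. Expression was 19.7, 84.9, 68.2 and 103.8 CPM in AAV8-GFP and at 49.8, 351.7, 104.2 and 65.8 CPM in AAV8-AGXT. Mouse 303 was below all others and mouse 309 above all others, and the remaining mice of both groups overlapped. Its log2 fold change of 1.05 (SE 0.64, 95% interval -0.38 to 2.48) had an edgeR adjusted p of 0.326. Without mouse 309 it was 0.07, and without mice 303 and 309 together it was -0.24, an alternative chosen after seeing the data. Lpin3 stood between 8.56 and 12.8 CPM in all mice with a log2 fold change of -0.06. The phosphatase that activates lipins consists of Ctdnep1 and Cnep1r1, and their log2 fold changes were -0.16 and -0.17, with edgeR adjusted p-values of 0.260 and 0.438.

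Dgat2 makes the bulk of triglyceride from newly made fatty acids in liver (ENSMUSG00000030747, chr7:99153658-99182719, minus strand). It stood at 353.4, 316.0, 334.9 and 455.9 CPM in AAV8-GFP and at 555.5, 445.9, 471.5 and 616.0 CPM in AAV8-AGXT. The groups overlapped by 1 pair of mice, since mouse 315 was just above mouse 309. The means were 365.1 ± 62.5 and 522.2 ± 78.1 CPM (SD, n = 4), a log2 fold change of 0.52 (SE 0.16, 95% interval 0.16 to 0.87) with an edgeR adjusted p of 0.0842. A two-sided exact permutation test of the Dgat2 means gave p = 0.0571.

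Dgat1, the DGAT that prefers preformed fatty acids (ENSMUSG00000022555, chr15:76502015-76511953, minus strand), stood at 41.6, 37.5, 30.8 and 32.4 CPM in AAV8-GFP and at 55.0, 31.1, 44.6 and 37.0 CPM in AAV8-AGXT. The groups overlapped, with mouse 309 among the lowest. The log2 fold change of Dgat1 was 0.24 (SE 0.17, 95% interval -0.15 to 0.63), the edgeR adjusted p was 0.417, and the fold change was 0.07 without mouse 308.

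Mogat1, an MGAT gene known to be induced in fatty liver (ENSMUSG00000012187, chr1:78510991-78538173, plus strand), was the lowest of the 8 genes in CPM. It stood at 10.5, 7.59, 6.27 and 8.42 CPM in AAV8-GFP and at 8.01, 9.43, 8.47 and 6.47 CPM in AAV8-AGXT. The groups lay over each other, with a log2 fold change of -0.02 (SE 0.19, 95% interval -0.44 to 0.40) and an edgeR adjusted p of 0.960. The interval leaves room for a difference of either sign. BC035947 overlaps 12.8% of its exonic length on the opposite strand. Mogat2, the intestinal MGAT, stood at 2.30 CPM or less in every mouse and had a log2 fold change of -1.05 with an edgeR adjusted p of 0.205.

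**Figure D2:**
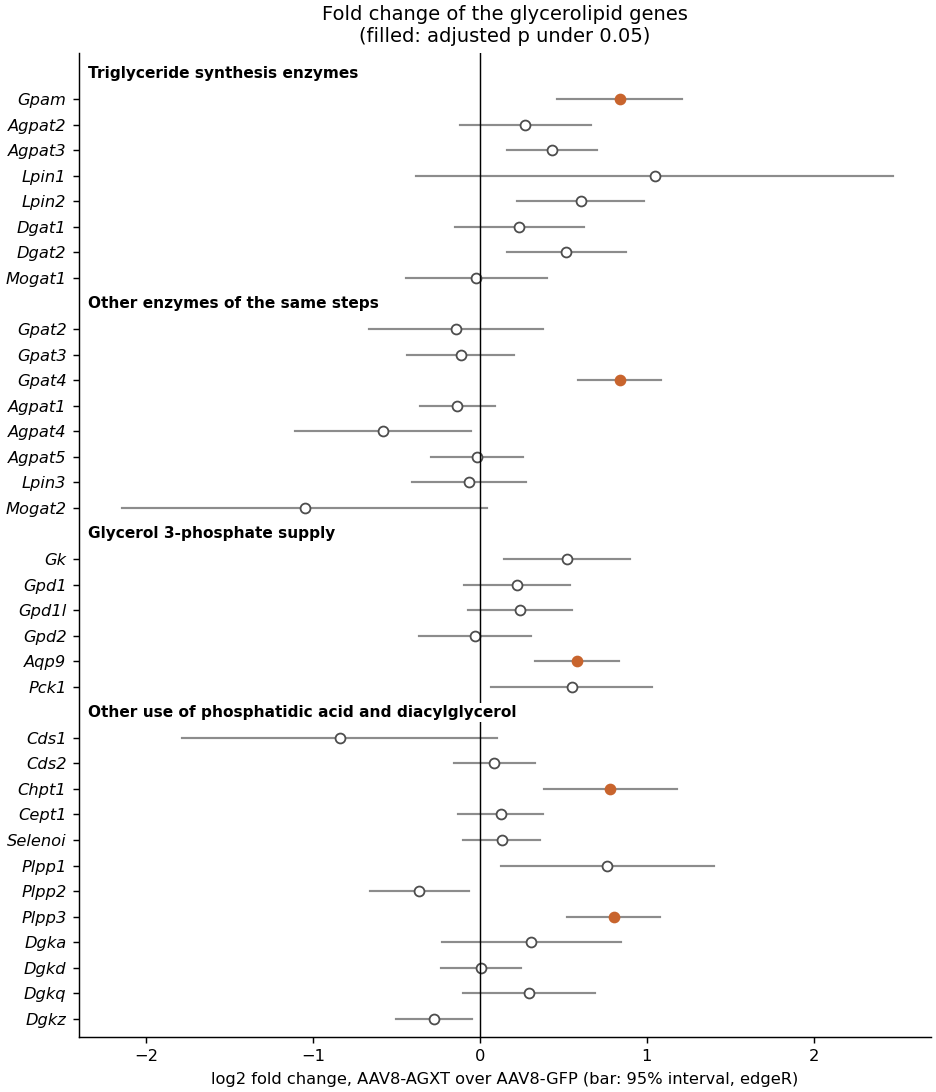
log2 fold change of AAV8-AGXT over AAV8-GFP with its 95% interval for the 8 triglyceride synthesis genes, the other enzymes of the same steps, genes of glycerol 3-phosphate supply and other genes that use phosphatidic acid or diacylglycerol. Filled points had an edgeR adjusted p under 0.05 and all 5 of them, Gpam, Gpat4, Aqp9, Chpt1 and Plpp3, lie to the right of 0.

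Levels of the enzymes of a step were compared per kilobase of exon. Dgat2 and Agpat2 had the highest levels in AAV8-GFP, 118.4 ± 20.3 and 117.5 ± 9.0 CPM per kb (SD, n = 4), and did not differ beyond their spread. Agpat3 at 41.4 ± 2.25 and Lpin2 at 35.0 ± 3.96 CPM per kb followed, with ranges that touched. The order of Agpat3 and Lpin2 depended on the length used. With the longest transcript as length, Lpin2 stood at 75.8 ± 8.58 and Agpat3 at 53.9 ± 2.94 CPM per kb in AAV8-GFP. Per kilobase of exon, Dgat1 at 11.6 ± 1.62, Lpin1 at 7.16 ± 3.73, Mogat1 at 5.26 ± 1.14 and Gpam at 4.88 ± 0.98 CPM per kb were the lowest of the 8. The range of each overlapped that of the next.

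Within the GPAT step, Gpat4 supplied 59.4 ± 2.52% of the summed level per kilobase in AAV8-GFP and 68.3 ± 1.57% in AAV8-AGXT (SD, n = 4), from 57.7% to 63.2% in the former and from 66.8% to 70.4% in the latter. The share of Gpam was 13.7 ± 2.75% and 15.7 ± 2.38% and overlapped between groups, while that of Gpat3 was 17.9% and 10.7%. Dgat2 supplied 90.9 ± 1.92% of the DGAT step in AAV8-GFP and 92.5 ± 1.63% in AAV8-AGXT, and Agpat2 supplied 68.5 ± 1.29% and 67.4 ± 3.94% of the AGPAT step. Lpin2 supplied 78.0 ± 4.57% and 76.1 ± 16.2% of the lipin step, where the share of Lpin1 ranged from 5.83% to 44.0% over the 8 mice. These shares are descriptions and depend on the exon length used.

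**Figure D3:**
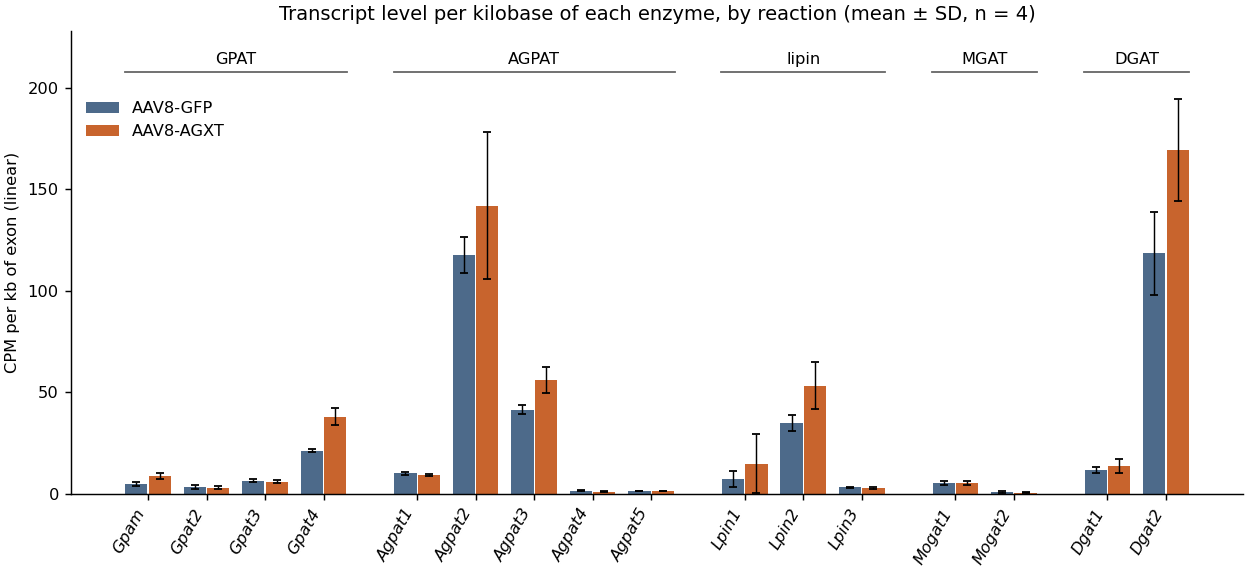
CPM per kilobase of exon on a linear axis for each enzyme, grouped by reaction, with bars for the mean and error bars for the SD of 4 mice in AAV8-GFP and AAV8-AGXT. Agpat2 and Dgat2 carry the highest levels in both groups, Gpat4 exceeds Gpam within the GPAT step, and Lpin1 has an error bar nearly as long as its AAV8-AGXT mean.

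Among 6 genes of glycerol 3-phosphate supply, 1 was called higher and none lower, against 2.45% and 1.9% of all genes tested. Their median log2 fold change was 0.38. The called gene was Aqp9, the channel through which hepatocytes take up glycerol. It stood at 398.0 ± 17.1 CPM in AAV8-GFP and at 595.0 ± 44.4 CPM in AAV8-AGXT (SD, n = 4). Aqp9 had a log2 fold change of 0.58 (SE 0.11) with an edgeR adjusted p of 0.0348. Glycerol kinase, Gk, did not overlap between groups, with a log2 fold change of 0.52 and an edgeR adjusted p of 0.0944. Gpd1, which makes glycerol 3-phosphate from glycolysis, had a log2 fold change of 0.22 and an edgeR adjusted p of 0.351, and Pck1, which feeds glyceroneogenesis, had 0.55 and 0.145.

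Of 12 genes of other enzymes that act on phosphatidic acid or diacylglycerol, 2 were called higher and none lower, against 2.45% and 1.9% of all genes tested. Their median log2 fold change was 0.13. Chpt1, which makes phosphatidylcholine from diacylglycerol, stood at 135.9 ± 29.2 CPM in AAV8-GFP and at 233.7 ± 35.1 CPM in AAV8-AGXT (SD, n = 4), a log2 fold change of 0.78 with an edgeR adjusted p of 0.0444. Its exons overlap those of Sycp3 on the opposite strand over 7.93% of their length. Plpp3, a phosphatase of the plasma membrane that acts on phosphatidic and lysophosphatidic acid, stood at 98.7 ± 12.4 and 172.1 ± 18.4 CPM, a log2 fold change of 0.80 with an edgeR adjusted p of 0.0248. The adjusted p passed 0.05 without mouse 311, 314 or 319 for Plpp3, without mouse 303, 311, 314, 308 or 319 for Aqp9, and without any mouse but 315 for Chpt1.

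Transcription factors tied to these genes were examined as a list of 7, with a median log2 fold change of 0.16. Of the 7, 1 was called higher and none lower, against 2.45% and 1.9% of all genes tested. Ppara, the receptor that drives fatty acid oxidation genes, stood at 43.3 ± 5.06 CPM in AAV8-GFP and at 80.1 ± 22.1 CPM in AAV8-AGXT (SD, n = 4), with a log2 fold change of 0.89 and an edgeR adjusted p of 0.0376. The call on Ppara held without mouse 309 or 316 and was lost without any of the other 6. Srebf1, which activates Gpam and fatty acid synthesis genes when insulin is high, stood at 158.1 ± 59.6 and 90.05 ± 26.1 CPM, with a log2 fold change of -0.81 and an edgeR adjusted p of 0.104. DESeq2 called Srebf1 lower, with an adjusted p of 0.0327. Mlxipl, the carbohydrate-response factor, and Pparg, known to drive Mogat1 and lipid droplet genes in fatty liver, had log2 fold changes of 0.03 and -0.14 with edgeR adjusted p-values of 0.954 and 0.655. None of 5 lipid droplet and uptake genes linked to PPARγ, Cidea, Cidec, Cd36, Plin4 and Fabp4, was called, and their median log2 fold change was 0.23. Cidea stood at 171.3 CPM in mouse 303, against 32.9 to 57.8 CPM in the other AAV8-GFP mice and 113.5 to 195.8 CPM with AGXT. Its log2 fold change was 0.97 with an edgeR adjusted p of 0.229, and without mouse 303 it was 1.78 with 0.0264.

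Lpin1 was set beside the genes that report on fasting, glucocorticoids and the clock, since it is known to move with all of these. Of 10 fasting and glucocorticoid response genes, 2 were called higher and none lower, against 2.45% and 1.9% of all genes tested. Fold changes were positive for 6 of the 10, with a median of 0.27 on the log2 scale. Tsc22d3, of the same list, had a log2 fold change of -0.41 with an edgeR adjusted p of 0.335. Fkbp5, a glucocorticoid receptor target, stood at 20.2, 25.5, 35.4 and 25.8 CPM in AAV8-GFP and at 50.6, 80.9, 51.2 and 92.7 CPM in AAV8-AGXT, with a log2 fold change of 1.37 and an edgeR adjusted p of 0.0283. Cpt1a, which admits fatty acids into mitochondria, had a log2 fold change of 0.73 and an edgeR adjusted p of 0.0374. Fkbp5 lost its call without mouse 311, 314 or 319, and Cpt1a kept its call only without mouse 309 or 316. Pdk4, a fasting gene, stood at 105.5 CPM in mouse 303, from 30.6 to 36.3 CPM in the other AAV8-GFP mice, and at 24.2, 79.6, 49.3 and 23.9 CPM in AAV8-AGXT. Mouse 309 was the highest of the AAV8-AGXT mice for both Lpin1 and Pdk4, whereas mouse 303 was the lowest of all for Lpin1 and the highest of all for Pdk4.

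None of 9 clock genes was called, but 5 of them, Arntl, Npas2, Per3, Cry1 and Dbp, did not overlap between groups, against 16.6% of all genes tested. Dbp, a clock output gene whose transcript peaks at one time of day, stood at 3.44, 7.28, 26.5 and 32.8 CPM in AAV8-GFP and at 62.1, 62.7, 68.2 and 84.7 CPM in AAV8-AGXT. Its log2 fold change was 2.0 (SE 0.57) with an edgeR adjusted p of 0.0724. Npas2, which peaks at the opposite time, stood at 15.3, 8.91, 7.66 and 7.76 CPM in AAV8-GFP and at 3.80, 5.65, 3.49 and 1.51 CPM in AAV8-AGXT, with a log2 fold change of -1.46 and an edgeR adjusted p of 0.0546. DESeq2, which called 2102 of 16204 genes, called all 5 with the same directions. Mouse 303 held the lowest Dbp and Lpin1 and the highest Npas2 value of its group. The part of the clock or of feeding in the values of the 8 genes was not tested.

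**Figure D4:**
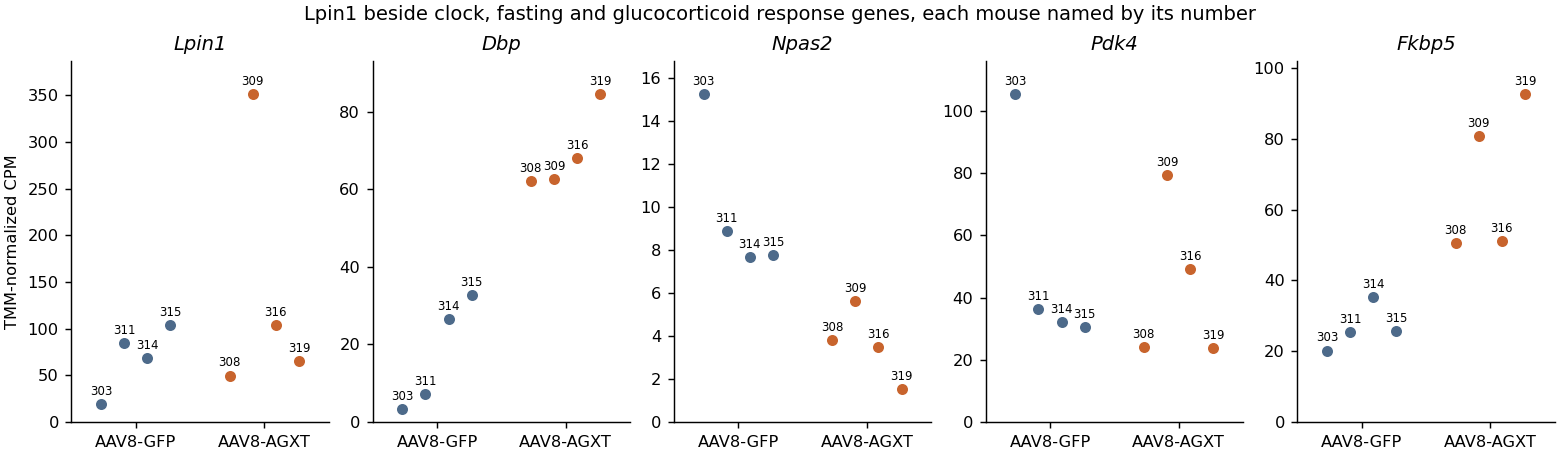
TMM-normalized CPM of Lpin1, Dbp, Npas2, Pdk4 and Fkbp5 on linear axes from 0, 1 point per mouse with its number, AAV8-GFP left and AAV8-AGXT right. Mouse 309 stands alone for Lpin1 at 351.7 CPM, mouse 303 stands alone for Pdk4 at 105.5 CPM, and Dbp, Npas2 and Fkbp5 do not overlap between groups.

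The scaling of the libraries bears on the sign of several of these fold changes. TMM factors lay between 1.02 and 1.14 in AAV8-GFP and between 0.830 and 1.00 in AAV8-AGXT. The lowest factor was that of mouse 308, which also had the lowest share of its pairs assigned to genes. Mouse 308 held the highest value of 4 of the 8 genes. Scaling to total counts moved the median log2 fold change of all genes tested to -0.22 and that of the 8 genes to 0.23, and Gpam then had 0.59 with an edgeR adjusted p of 0.0511. A further scaling, chosen after seeing the data, used the geometric mean of the counts of the 5 hepatocyte markers. It moved the median of all genes tested to -0.49 and that of the 8 genes to -0.04. These 5 markers were themselves higher in AAV8-AGXT, with a median log2 fold change of 0.45, and Cps1 among them was called higher. Under the marker scaling, Gpam and Gpat4 each kept a log2 fold change of 0.31, with edgeR adjusted p-values of 0.183 and 0.0864. Lpin2 had 0.075 and Dgat2 0.0041, while Agpat3, Agpat2 and Dgat1 turned negative at -0.089, -0.28 and -0.29. Under all 3 scalings, each of the 8 genes but Mogat1 lay above the median of all genes tested.

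**Figure D5:**
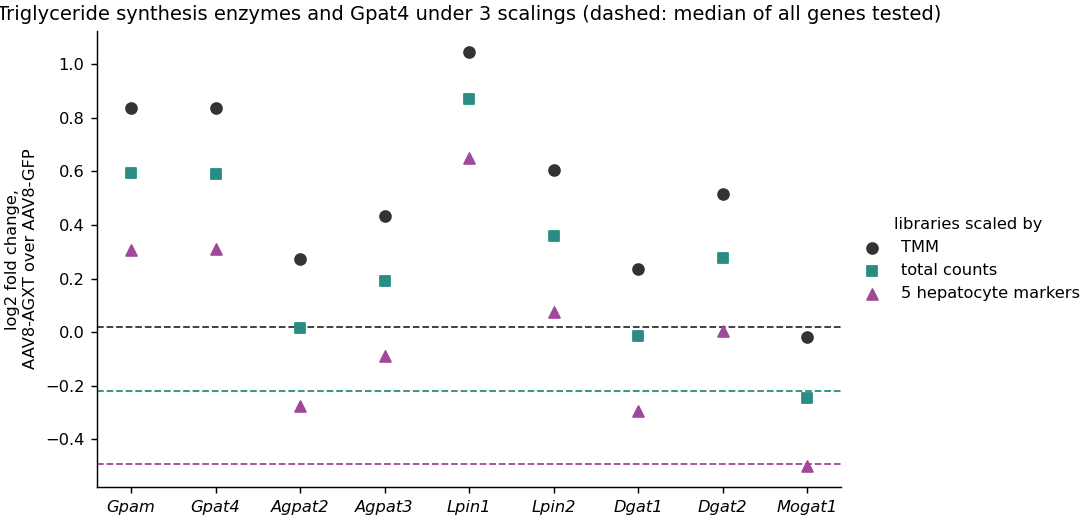
log2 fold change of AAV8-AGXT over AAV8-GFP for the 8 triglyceride synthesis genes and Gpat4 with libraries scaled by TMM, by total counts or by 5 hepatocyte markers. Dashed lines give the median of all 15248 genes tested under the scaling of the same colour, 0.02, -0.22 and -0.49, and the points of each gene move down together with these lines.

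The genes outside these lists whose pattern over the 8 mice was nearest to that of Gpam were Cyp2c68, Acadvl and Sec14l4, with mean absolute differences of 0.10, 0.10 and 0.11 in centred log2 CPM. Cyp2c68 is a cytochrome P450, Acadvl encodes the very long-chain acyl-CoA dehydrogenase that opens mitochondrial fatty acid oxidation, and Sec14l4 encodes a lipid-binding protein. Exons of Acadvl overlap those of Dvl2 over 1151 of 2686 bp, which leaves its counts uncertain.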

How the data were processed

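Total RNA was extracted from livers at week 24 and made into stranded mRNA libraries. Per the labels and the methods of the study, the authors trimmed reads with Trimmomatic 0.35, aligned them to GRCm38 with HISAT2 2.1.0.13 and counted them per Ensembl gene with HTSeq. The deposited values were raw counts, whole numbers of read pairs per gene. The strand setting and the handling of overlaps were not given in the sources used here, so overlapping genes may share or lose reads. Special HTSeq lines stayed out of library sizes, and pairs assigned to genes made up 56.3% to 69.1% of all pairs. Symbols, positions and exon lengths came from GENCODE M21 on GRCm38, which matched 52489 of 52636 identifiers. RefSeq promoter windows of GRCm38.p6 supplied sequences.

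Counts were tested with edgeR 4.0.16 in R 4.3.3 (filterByExpr, TMM, quasi-likelihood F-test, treatment as the only term, Benjamini-Hochberg adjustment over 15248 genes, threshold 0.05). CPM values were TMM-normalized. Standard errors and 95% intervals came from the same fit. Single genes were also compared by a two-sided exact permutation test of the difference of means over 70 arrangements. The fit was tested on simulated data. DESeq2 1.42.0, limma 3.58.1 (voom), other scalings, other filters and leaving out each mouse in turn were alternatives. The genes and lists were chosen with earlier results of these data known. The genes named were the 8 enzymes, the genes of the fixed lists and the 3 genes nearest in pattern to the called gene. No batch was given in the labels. Values of 1 listed gene are not reported here.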

Additional observations from a re-analysis of the deposited data

Results flagged for a closer look

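In 6 of 86 groups of 4 mice, each the CPM values of 1 gene in 1 treatment group, the most extreme mouse was separated from the others by a gap whose ratio to the range of the group was above the 95% critical value of Dixon's test for 4 values. Chance alone gives about 1 in 20 such groups when they are independent. These groups were not, since they covered a selection of the listed genes in the same 8 mice, so the count was not compared with that rate. Mouse 303 was the extreme mouse in 5 of them, all in AAV8-GFP. It was the highest for Cidec (ratio of gap to range 0.973, 358.2 CPM against 264.0 to 266.5 CPM in the other 3 mice), for Pdk4 (0.924), for Mogat2 (0.857) and for Npas2 (0.836), and the lowest for Ctdnep1 (0.890, 55.8 CPM against 58.3 to 58.6 CPM). Mouse 308 was the highest of the AAV8-AGXT mice for Gk (0.861, 177.6 CPM against 128.0 to 134.9 CPM). None of the 8 triglyceride synthesis genes passed this value, and Lpin1 in mouse 309 came near to it with a ratio of 0.820.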

How the results depend on the processing

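Of the 8 enzymes, 1 was called higher by edgeR with TMM and none lower. DESeq2 called 4 higher (Gpam, Agpat3, Lpin2 and Dgat2, adjusted p-values 0.00072, 0.0027, 0.0085 and 0.021), among 2102 genes called in all against 664. Scaling to total counts, scaling to hepatocyte markers, and leaving out mice 303 and 309 together each called 0, and leaving out 1 mouse at a time called from 0 to 1, while the number called among all genes then ranged from 2 to 643. None was called lower under any of the 18 alternatives. With the longest transcript as gene length, the AAV8-GFP shares of Agpat2, Agpat3 and Lpin2 in their steps moved to 70.4%, 22.6% and 83.5%. The order of Agpat3 and Lpin2 in CPM per kb reversed with this length. Scaling to hepatocyte markers turned the log2 fold changes of Agpat2 (-0.28), Agpat3 (-0.089), Dgat1 (-0.29), Gk (-0.015), Gpd1 (-0.29), Mlxipl (-0.49) and Cidec (-0.27) negative, and scaling to total counts those of Dgat1 (-0.015), Gpd1 (-0.022), Mlxipl (-0.21) and Cidec (-0.0047). Mlxipl was also at -0.031 with upper-quartile normalization and at -0.012 with at least 10 counts in every mouse. Without mice 303 and 309 together, Lpin1 (-0.24), Mlxipl (-0.074), Mogat1 (0.024), Gpat2 (0.11) and Lpin3 (0.025) changed sign. Leaving out 1 mouse at a time gave a range of 0.074 to 1.32 for Lpin1 and ranges across 0 for Mogat1 (-0.15 to 0.12), Gpat2 (-0.29 to 0.073), Agpat5 (-0.076 to 0.067), Lpin3 (-0.16 to 0.012), Mlxipl (-0.11 to 0.29) and Pdk4 (-0.67 to 0.42). The causes were not tested. A change of scaling moves the fold changes of all genes together, and total-count and marker scaling moved them down in these data. Mogat2 and Cds1 gave no value with at least 10 counts in every mouse. No paired analysis was possible because the mice carried individual numbers that the groups did not share.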
